A study of Mus musculus with 9 samples.

Results

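The tumour suppressor p53, its regulators and classical targets, and the BCL2 family with its downstream caspases and inhibitors were followed in mouse duodenal organoids that overexpressed a HIF transcription factor. The 38 genes were taken by symbol from a list of these genes, and all 38 were present among the 46517 genes of the expression tables. The organoids came from duodenal crypts of wild type C57BL/6J mice and were grown in Matrigel with L-WRN conditioned medium (a source of Wnt3a, R-spondin 3 and noggin), Y27632, SB431542 and nicotinamide at 5% oxygen. Dissociated cells were transduced with Ad-GFP, which carries green fluorescent protein and served as control, with Ad-hHIF2 or with Ad-hHIF1, which carry human HIF2 or HIF1 with proline-to-alanine substitutions that keep VHL from degrading them. The dose was 50 particles per cell for each virus. RNA was taken after about 72 hours from 3 cultures per group (n = 3), which the labels number 1, 3 and 4. Expression from these vectors is transient, the Ad-GFP vector came from another source than the HIF vectors, and none of the 9 cultures was irradiated.

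p53 is a transcription factor that is held at a low level by the ubiquitin ligase Mdm2 and its partner Mdm4 and is stabilised after DNA damage. Its targets stop the cell cycle, limit metabolic stress, or promote apoptosis, in which BH3-only proteins free Bax and Bak1 to open the outer mitochondrial membrane, the anti-apoptotic proteins Bcl2, Bcl2l1 and Mcl1 hold them back, and released cytochrome c joins Apaf1 and Casp9 in the apoptosome. In the intestinal crypt p53, Cdkn1a and Bbc3 are known for setting how stem and progenitor cells survive radiation, and HIF proteins bind the core of hypoxia response elements in DNA.

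The libraries held 21722618 to 51119041 expected counts. Levels are given as counts scaled by library size with TMM factors (CPM). A call means that edgeR's quasi-likelihood test, with Benjamini-Hochberg adjustment over all genes that passed the count filter, gave an adjusted p below 0.05. Reads assigned to the mouse gene Epas1, which encodes HIF2, measured 1.77 ± 0.382 CPM in Ad-GFP and 672 ± 78.1 CPM in Ad-hHIF2 organoids (SD, n = 3). Reads assigned to Hif1a measured 219.7 ± 28 CPM in Ad-GFP and 309 ± 9.96 CPM in Ad-hHIF1 organoids. These cultures did not overlap (198 to 251 and 299 to 319 CPM). In this comparison edgeR called no gene, Hif1a included (edgeR unadjusted p = 0.00148, adjusted p = 0.486). How many reads of the human transgenes the mouse genes took up is not known. The study reported HIF overexpression by western blot and by qRT-PCR. Epithelial markers summed to 3222 to 3738 CPM per culture with Cdx1 at 0, and Krt8, Krt18, Krt19 and Cdh1 made up nearly all of the sum. In Ad-GFP organoids Epcam measured 2.94 ± 0.745, Vil1 4.36 ± 0.432, Cdx2 7.21 ± 0.517 and Cldn7 1.98 ± 0.379 CPM. Fibroblast, immune and endothelial lists stayed at or below 19.9 CPM, the enterocyte list at or below 5.37 CPM and the goblet, Paneth and enteroendocrine list at or below 7.5 CPM. In Ad-hHIF2 against Ad-GFP organoids Cdh1 and Csf1r were called higher (0.53 and 1.46 on the log2 scale) and Epcam and Muc2 lower (-0.81 and -1.77). Apoa4 was called higher (0 to 0.0277 CPM in Ad-GFP, 2.22 to 2.81 CPM in Ad-hHIF2) and Ptprc lower (0.492 to 1.15 and 0 to 0.0686 CPM), and the part of these genes in the members' results was not tested. The crypt stem cell list summed to 94.1 to 111.6 CPM in Ad-GFP, 78.3 to 89.3 CPM in Ad-hHIF2 and 89.4 to 105.3 CPM in Ad-hHIF1 cultures, nearly all of it from Cd44, which was called lower in Ad-hHIF2 than in Ad-GFP organoids (-0.31, edgeR adjusted p = 0.0350). Its part in the members' results was not tested either. The defining markers were near absent, with Lgr5, Ascl2, Smoc2 and Axin2 below 1 CPM on average in every group and Olfm4 at 0 in all Ad-GFP and Ad-hHIF2 cultures. Lgr5 and Axin2 went the other way from Cd44 in Ad-hHIF2 against Ad-GFP organoids. Their log2 fold changes were 1.84 and 1.02, neither called (edgeR adjusted p = 0.0714 and 0.253). Ascl2, Smoc2 and Olfm4 were not tested in this comparison. In bulk RNA, fewer cells of a type and less RNA per cell cannot be told apart. The study calls the cultures biological replicates, and the labels do not tie a culture to an animal.

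Promoters are shown for 4 members with large changes in opposite directions, because they let a reader see which HIF and p53 motifs lie at the start sites of genes that moved apart. Each run holds the 250 bases before the RefSeq start on the gene's own strand (GRCm38.p6). Capitals mark a HIF core (ACGTG or GCGTG, searched on both strands) or a p53 half-site (by its consensus name, on both strands). Sesn2 and Cdkn1a were higher in Ad-hHIF2 organoids, Gadd45a and Btg2 lower.
Sesn2 (chr4:132510457-132510706, minus strand): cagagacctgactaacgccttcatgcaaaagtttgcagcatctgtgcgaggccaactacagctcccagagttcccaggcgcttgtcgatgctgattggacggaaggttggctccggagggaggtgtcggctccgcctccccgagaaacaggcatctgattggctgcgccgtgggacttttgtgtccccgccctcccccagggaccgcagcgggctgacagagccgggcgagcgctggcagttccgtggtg
Cdkn1a (chr17:29090729-29090978, plus strand): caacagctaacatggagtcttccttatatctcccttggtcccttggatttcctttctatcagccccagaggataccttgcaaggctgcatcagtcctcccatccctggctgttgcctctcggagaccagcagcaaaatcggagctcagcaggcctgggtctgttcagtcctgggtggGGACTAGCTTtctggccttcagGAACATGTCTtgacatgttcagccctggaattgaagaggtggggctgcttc
Gadd45a (chr6:67037408-67037657, minus strand): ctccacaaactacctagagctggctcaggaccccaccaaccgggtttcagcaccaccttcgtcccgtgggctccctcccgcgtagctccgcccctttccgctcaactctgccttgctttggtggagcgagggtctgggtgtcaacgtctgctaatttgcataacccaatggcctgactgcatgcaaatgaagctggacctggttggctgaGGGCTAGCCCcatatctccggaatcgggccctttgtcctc
Btg2 (chr1:134079156-134079405, minus strand): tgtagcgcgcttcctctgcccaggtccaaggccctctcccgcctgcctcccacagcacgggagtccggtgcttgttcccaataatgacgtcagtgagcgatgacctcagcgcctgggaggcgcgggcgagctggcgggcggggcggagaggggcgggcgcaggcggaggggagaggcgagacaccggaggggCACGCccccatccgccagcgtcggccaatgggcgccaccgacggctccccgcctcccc
The Sesn2 run holds neither motif, the Cdkn1a run holds 2 p53 half-sites, the Gadd45a run 1 p53 half-site and the Btg2 run 1 HIF core. Cdkn1a has a second RefSeq start, whose window (chr17:29093519-29093818, not shown) holds 1 HIF core and no p53 half-site. RefSeq promoter windows, each 250 bases before to 50 after a start, were found for 32 of the 38 members, in 44 windows. A HIF core was present in 25 of these windows (56.8%), against 43.8% of 32851 windows of all genes, and a p53 half-site in 9 (20.5%), against 8.36%. Among members called higher in Ad-hHIF2 organoids, 7 of 11 windows held a HIF core and 3 a p53 half-site, among those called lower 4 of 6 and 2 did, and among those tested and not called 13 of 26 and 4 did. These matches describe letters in a short window and show no binding.

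In Ad-hHIF2 against Ad-GFP organoids, 36 of the 38 members had enough counts to be tested and 17 were called, with 9 higher and 8 lower. This is 47.2% of the members tested, against 29.5% of the 14987 genes tested. The share called higher was 25% of the members tested and 15.9% of all genes, and the share called lower was 22.2% and 13.6%. The members were chosen with earlier results of these data known. They also had more reads than most genes, with a median of 22 CPM against 9.28 CPM over all genes tested. The part of this choice and of depth in these shares was not tested. The median log2 fold change of the members was 0.09, beside -0.01 over all genes, and their median size was 0.34, beside 0.32. With a change of at least 2-fold in addition, 1 member was higher (Sesn2, against 2.9% of all genes) and 1 lower (Gadd45a, against 3.83%). The 3 cultures of Ad-hHIF2 lay wholly above or below the 3 of Ad-GFP for 23 members (63.9%, against 45.8% of all genes). All 17 called members were among these 23, and the other 6 were Mdm4, Ccng2, Gadd45b, Ppm1d, Casp8 and Birc3. On log2 TPM, which were not scaled for library composition, 3 members (pseudocount 1) or 4 (pseudocount 0.1) were called higher and none lower, and Sesn2, Cdkn1a and Trp53inp1 were called in every alternative tried, except that Cdkn1a and Trp53inp1 missed the 2-fold rule. Exons overlap those of a gene on the opposite strand in 7 members, over 7.68% of the exonic bases of Cdkn1a, 6.09% of Bcl2 and 1.81% of Casp9 for example, and Bax shares 12.2% with a gene on its own strand.

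**Figure D1:**
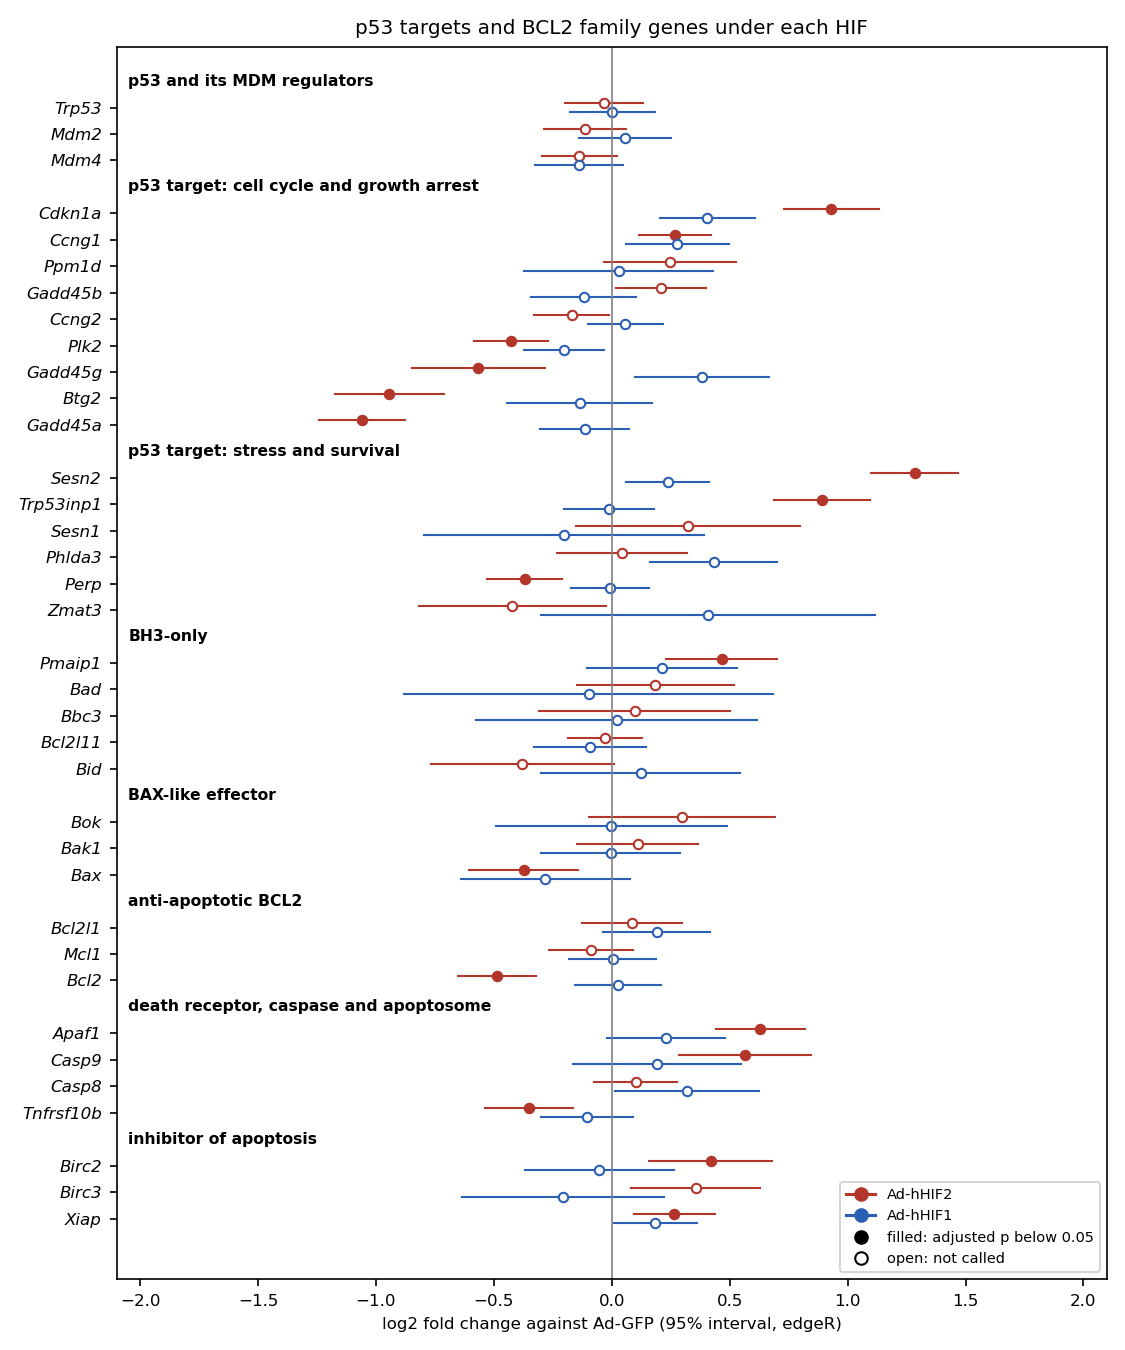
Log2 fold change against Ad-GFP (x axis) of the 36 members tested under both HIFs, in blocks by role, with 95% intervals from edgeR, red for Ad-hHIF2 and blue for Ad-hHIF1. Filled points passed an adjusted p of 0.05: 17 red points are filled, from -1.06 for Gadd45a to 1.28 for Sesn2, and no blue point is.

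Trp53, Mdm2 and Mdm4 did not pass the test in any comparison. Trp53 (chr11:69580359-69591873, plus strand) measured 23.9, 25.1 and 24.2 CPM in Ad-GFP, 25.5, 22.7 and 23.3 CPM in Ad-hHIF2 and 23.6, 23.7 and 26 CPM in Ad-hHIF1 cultures 1, 3 and 4. The 9 values overlapped across all groups, and the 95% interval of the log2 fold change in Ad-hHIF2 against Ad-GFP was -0.20 to 0.13. Mdm2, a p53 target as well as its ubiquitin ligase, measured 52.5 ± 2.99 CPM in Ad-GFP, 48.4 ± 3.10 CPM in Ad-hHIF2 and 54.6 ± 4.29 CPM in Ad-hHIF1 organoids, with an edgeR adjusted p of 0.296 for Ad-hHIF2. Mdm4, which blocks the activating domain of p53, had all 3 Ad-hHIF2 values (30.7 to 33.4 CPM) below those of Ad-GFP (33.8 to 36.7 CPM), but its log2 fold change of -0.14 did not pass the test (edgeR adjusted p = 0.178).

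Among the 9 targets of the cell cycle and growth arrest group, 2 rose, 4 fell and 3 did not pass the test in Ad-hHIF2 organoids. Over all genes tested, 15.9% were called higher and 13.6% lower. Cdkn1a (chr17:29090976-29100727, plus strand), which encodes the cyclin-dependent kinase inhibitor p21, measured 28.6, 28.5 and 33.4 CPM in Ad-GFP cultures 1, 3 and 4, 57.1, 53.9 and 61 CPM in Ad-hHIF2 and 38.3, 40.2 and 41.3 CPM in Ad-hHIF1. The 3 groups did not overlap, with Ad-hHIF2 highest and Ad-hHIF1 between. Its level was 1.91-fold higher in Ad-hHIF2 than in Ad-GFP organoids (log2 fold change 0.93 ± 0.09 SE, edgeR adjusted p = 0.000142). Ccng1, an atypical cyclin that feeds back on Mdm2, rose from 34 ± 0.723 to 40.8 ± 1.95 CPM (edgeR adjusted p = 0.0175). This smaller call was lost without Ad-GFP culture 1 or 3 or without Ad-hHIF2 culture 3, with adjusted p values of up to 0.0769.

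The GADD45 genes, which encode small stress sensors that bind PCNA and MAP kinase kinases, did not move as a family. Gadd45a (chr6:67035096-67037457, minus strand) measured 62.5, 57.5 and 66.2 CPM in Ad-GFP, 29.5, 28.4 and 31.2 CPM in Ad-hHIF2 and 58.7, 53.6 and 59.6 CPM in Ad-hHIF1. Every Ad-hHIF2 value was at about the same level and well under the lowest of the other 6 cultures, 2.08-fold lower than Ad-GFP (log2 fold change -1.06 ± 0.08 SE, edgeR adjusted p = 3.70e-05). Its exons share 19.1% of their bases with a noncoding transcript on the opposite strand, E230016M11Rik, and the strand used for counting is not given in the sources used here. Gadd45g measured 15.2, 16.3 and 12.1 CPM in Ad-GFP, 10.5, 9.61 and 9.31 CPM in Ad-hHIF2 and 17.9, 19.8 and 19.3 CPM in Ad-hHIF1. The groups again did not overlap, with Ad-hHIF2 lowest and Ad-hHIF1 highest, and the fall in Ad-hHIF2 passed the test (-0.57 ± 0.12 SE, edgeR adjusted p = 0.00964). For Gadd45b the Ad-hHIF2 values of 20.7 to 23.1 CPM lay above the Ad-GFP values of 17.8 to 20.0 CPM without passing it (edgeR adjusted p = 0.0962).

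Btg2 (chr1:134075170-134079120, minus strand), an antiproliferative gene that promotes mRNA deadenylation, measured 21.6, 18.8 and 17.7 CPM in Ad-GFP, 9.58, 10.5 and 10.1 CPM in Ad-hHIF2 and 17.5, 14.9 and 20.4 CPM in Ad-hHIF1. The Ad-hHIF2 cultures were tightly grouped below all others, and the gene was 1.92-fold lower than in Ad-GFP organoids (-0.94 ± 0.10 SE, edgeR adjusted p = 0.000281). Plk2, a polo-like kinase of the centrosome cycle, fell, with Ad-GFP cultures at 84.2 to 85.2 CPM and Ad-hHIF2 cultures at 59.3 to 64.8 CPM (log2 fold change -0.43, edgeR adjusted p = 0.00230), with Ad-hHIF1 cultures between at 69.6 to 78.5 CPM. Its sign turned on the TPM scales (0.03 with a pseudocount of 1 and 0.02 with 0.1, neither past the test), but both values lay below the median of all genes there, 0.12 and 0.30, and centring the TPM on their median, a step chosen after seeing the data, gave -0.38 beside -0.10 for all genes. Ccng2, a cyclin of growth arrest, and Ppm1d, the phosphatase that switches p53 signalling off, did not pass the test (edgeR adjusted p = 0.102 and 0.168). The proliferation list (Mki67, Top2a, Ccnb1, Cdk1, Pcna and Mcm2) summed to 94.8 to 103.9 CPM in Ad-hHIF2 cultures, beside 124.8 to 137.1 CPM in Ad-GFP and 125.7 to 130.2 CPM in Ad-hHIF1, with 3 of 6 genes (Top2a, Pcna and Mcm2) called lower in Ad-hHIF2 than in Ad-GFP. Over all genes 13.6% were called lower, and the part of the proliferation list's difference in the arrest genes' changes was not tested.

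**Figure D2:**
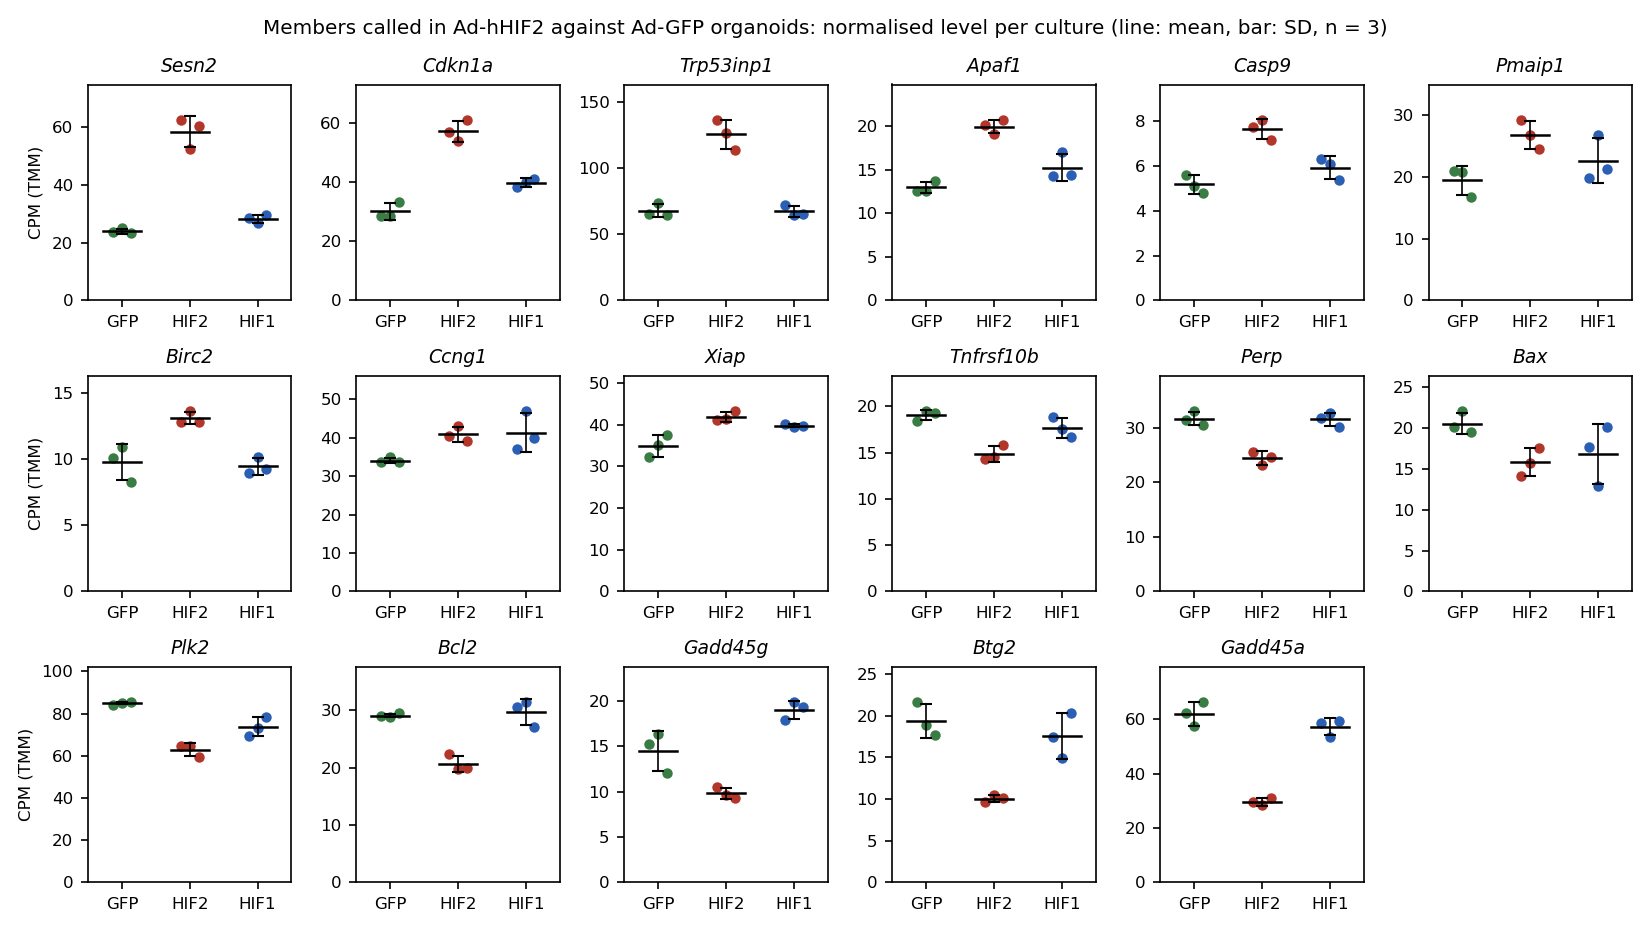
CPM per culture (y axes, each from 0) of the 17 members called in Ad-hHIF2 against Ad-GFP organoids, in order of log2 fold change, with points for cultures, a line for the mean and a bar for the SD (n = 3). Sesn2, Cdkn1a and Trp53inp1 stand highest above Ad-GFP, and Gadd45a and Btg2 farthest below it, in all 3 Ad-hHIF2 cultures.

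Of the 6 targets that act in stress and survival, 2 rose, 1 fell and 3 did not pass the test. The shares over all genes were 15.9% called higher and 13.6% lower. Sesn2 (chr4:132492032-132510501, minus strand), a leucine sensor that restrains mTORC1 and is induced by several stresses besides p53, measured 23.8, 24.9 and 23.2 CPM in Ad-GFP, 62.2, 52.2 and 60.4 CPM in Ad-hHIF2 and 28.4, 26.8 and 29.5 CPM in Ad-hHIF1. Every Ad-hHIF2 culture exceeded the other 6, and the 2.44-fold difference from Ad-GFP had the largest log2 fold change among the 36 members tested (1.28 ± 0.08 SE, edgeR adjusted p = 1.51e-05). Its relative Sesn1 measured 2.57 ± 0.108 CPM in Ad-GFP and 3.20 ± 0.574 CPM in Ad-hHIF2 organoids and did not pass the test (edgeR adjusted p = 0.281).

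Trp53inp1 (chr4:11156431-11174379, plus strand), which encodes a p53 cofactor of stress and autophagy, measured 65, 73.5 and 64.7 CPM in Ad-GFP, 136, 126 and 114 CPM in Ad-hHIF2 and 72, 64.3 and 65.1 CPM in Ad-hHIF1. Ad-GFP and Ad-hHIF1 cultures shared a range and the Ad-hHIF2 cultures lay above it, 1.85-fold higher than Ad-GFP (0.89 ± 0.09 SE, edgeR adjusted p = 0.000184). Perp, a desmosome and apoptosis gene of the plasma membrane, fell to 23.1 to 25.5 CPM in Ad-hHIF2 cultures from 30.5 to 33 CPM in Ad-GFP (-0.37 ± 0.07 SE, edgeR adjusted p = 0.00491). Its log2 fold changes were 0.07 and 0.08 on the TPM scales, again below the medians of all genes there. On centred TPM its value was -0.33, beside -0.10 for all genes. Zmat3, an RNA-binding target of p53, and Phlda3, an inhibitor of AKT, did not pass the test in this comparison. Their log2 fold changes were -0.42 and 0.04.

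Among the BH3-only members 1 of 5 tested was called, beside 29.5% of all genes. Outside the members, the BH3-only gene Bmf was called higher (1.06 on the log2 scale, edgeR adjusted p = 5.31e-05). Hrk, another, was not called (edgeR adjusted p = 0.525). Pmaip1, which encodes Noxa, an antagonist of Mcl1, measured 20.9, 20.7 and 16.7 CPM in Ad-GFP, 29.1, 26.8 and 24.6 CPM in Ad-hHIF2 and 19.8, 26.8 and 21.2 CPM in Ad-hHIF1. The Ad-hHIF2 values were all above those of Ad-GFP (0.47 ± 0.10 SE, edgeR adjusted p = 0.0104), while the Ad-hHIF1 values overlapped both. Bbc3, which encodes Puma, the main BH3-only target of p53 in the crypt, measured 9.70, 9.01 and 6.25 CPM in Ad-GFP and 7.80, 8.69 and 10.4 CPM in Ad-hHIF2. These ranges overlapped, and the 95% interval of -0.31 to 0.50 on the log2 scale leaves room for a change of about the size called in other members. For Bcl2l11 (Bim) the interval was narrower, -0.18 to 0.13. Bid and Bad gave log2 fold changes of -0.38 and 0.18 (edgeR adjusted p = 0.128 and 0.378), with 17.7% of Bid's and 20.5% of Bad's exonic bases shared with genes on the opposite strand. Leaving out 1 culture gave -0.54 to -0.24 for Bid and 0.07 to 0.29 for Bad. Bid was called lower without Ad-GFP culture 4 (edgeR adjusted p = 0.0133). Bik was not tested, at 0.0547 to 0.250 CPM in Ad-GFP, 0.0647 to 0.177 CPM in Ad-hHIF2 and 0 to 0.291 CPM in Ad-hHIF1 cultures.

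Of all genes 13.6% were called lower, and of the 3 pore-forming effectors Bax was. It measured 20.1, 22 and 19.6 CPM in Ad-GFP, 14.2, 15.8 and 17.6 CPM in Ad-hHIF2 and 17.6, 12.9 and 20.1 CPM in Ad-hHIF1. The Ad-hHIF2 values were below those of Ad-GFP (-0.37 ± 0.10 SE, edgeR adjusted p = 0.0234), whereas Ad-hHIF1 spanned a wide range that overlapped both. The call was among the least firm: it was lost without Ad-GFP culture 1 or 3, without Ad-hHIF2 culture 1 or 3 (adjusted p up to 0.103) and with all 9 samples in 1 fit (edgeR adjusted p = 0.0884). On the TPM scales the log2 fold change was 0.06 and 0.07, below the medians of all genes. On centred TPM it was -0.33, beside -0.10 for all genes, and missed the threshold (limma adjusted p = 0.0547). Bak1 and Bok did not pass the test, at log2 fold changes of 0.11 and 0.30 (edgeR adjusted p = 0.507 and 0.230).

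The anti-apoptotic genes differed among themselves. Bcl2 measured 28.9, 28.8 and 29.4 CPM in Ad-GFP, 22.3, 19.7 and 20.0 CPM in Ad-hHIF2 and 30.5, 31.4 and 27.1 CPM in Ad-hHIF1. Its level was 1.40-fold lower in Ad-hHIF2 than in Ad-GFP organoids, and no Ad-hHIF2 value reached any of the other 6 (-0.49 ± 0.07 SE, edgeR adjusted p = 0.00164). Per kilobase of effective length, which allows levels of different genes to be compared, Bcl2 stood at 4.49 CPM per kb in Ad-GFP organoids, under Mcl1 at 33.7 and Bcl2l1 (Bcl-xL) at 32.1. Mcl1 measured 110.4 ± 7.35 CPM in Ad-GFP and 104 ± 4.25 CPM in Ad-hHIF2 organoids, and neither it nor Bcl2l1 passed the test, with 95% intervals of -0.26 to 0.09 and -0.13 to 0.30 on the log2 scale.

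In the group of death receptors, caspases and apoptosome, both apoptosome genes rose. Of the 4 genes tested there 2 were called higher and 1 lower, beside 15.9% and 13.6% of all genes. Apaf1, the scaffold, measured 12.6, 12.6 and 13.8 CPM in Ad-GFP, 20.1, 19.1 and 20.7 CPM in Ad-hHIF2 and 14.3, 17 and 14.4 CPM in Ad-hHIF1. The groups did not overlap, and the order was the same as for Cdkn1a, with a 1.55-fold rise in Ad-hHIF2 over Ad-GFP (0.63 ± 0.08 SE, edgeR adjusted p = 0.000829). Casp9, the initiator caspase that Apaf1 activates, measured 5.63, 5.13 and 4.80 CPM in Ad-GFP and 7.77, 8.04 and 7.18 CPM in Ad-hHIF2. These groups did not overlap (0.57 ± 0.12 SE, edgeR adjusted p = 0.00975).

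The death receptor gene Tnfrsf10b, which encodes the mouse TRAIL receptor, fell, with Ad-GFP cultures at 18.4 to 19.5 CPM and Ad-hHIF2 cultures at 14.3 to 15.9 CPM (-0.35 ± 0.08 SE, edgeR adjusted p = 0.0129). That call was lost without Ad-hHIF2 culture 1 or 3, with an adjusted p of up to 0.0683. Its log2 fold change was 0.05 and 0.09 on the TPM scales, below the medians of all genes. On centred TPM it was -0.32, beside -0.10 for all genes. Casp8, the initiator caspase of death receptors, did not pass the test (0.10, edgeR adjusted p = 0.359). Fas had too few counts in this comparison, at 0.200 to 0.711 CPM in Ad-GFP and 0.0323 to 0.373 CPM in Ad-hHIF2 cultures.

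The inhibitors of apoptosis, ubiquitin ligases that bind caspases or their signalling partners, had 2 of 3 genes called, both higher in Ad-hHIF2 organoids. Of all genes, 15.9% were called higher. Xiap rose from 35 ± 2.60 to 41.9 ± 1.13 CPM (edgeR adjusted p = 0.0297) and Birc2 (cIAP1) from 9.79 ± 1.35 to 13.1 ± 0.445 CPM (edgeR adjusted p = 0.0253). Both calls were lost when some single cultures were left out: Xiap without Ad-GFP culture 1 or 3 or Ad-hHIF2 culture 3 or 4, and Birc2 without Ad-GFP culture 1 or any 1 Ad-hHIF2 culture, with adjusted p values of up to 0.108 and 0.0819. Birc3 (cIAP2) measured 10.3, 10.1 and 11.1 CPM in Ad-GFP and 12.5, 15.5 and 12.1 CPM in Ad-hHIF2, which did not overlap but missed the threshold (edgeR adjusted p = 0.0539). The other 12 called members kept their call when each of the 6 cultures was left out in turn.

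**Figure D3:**
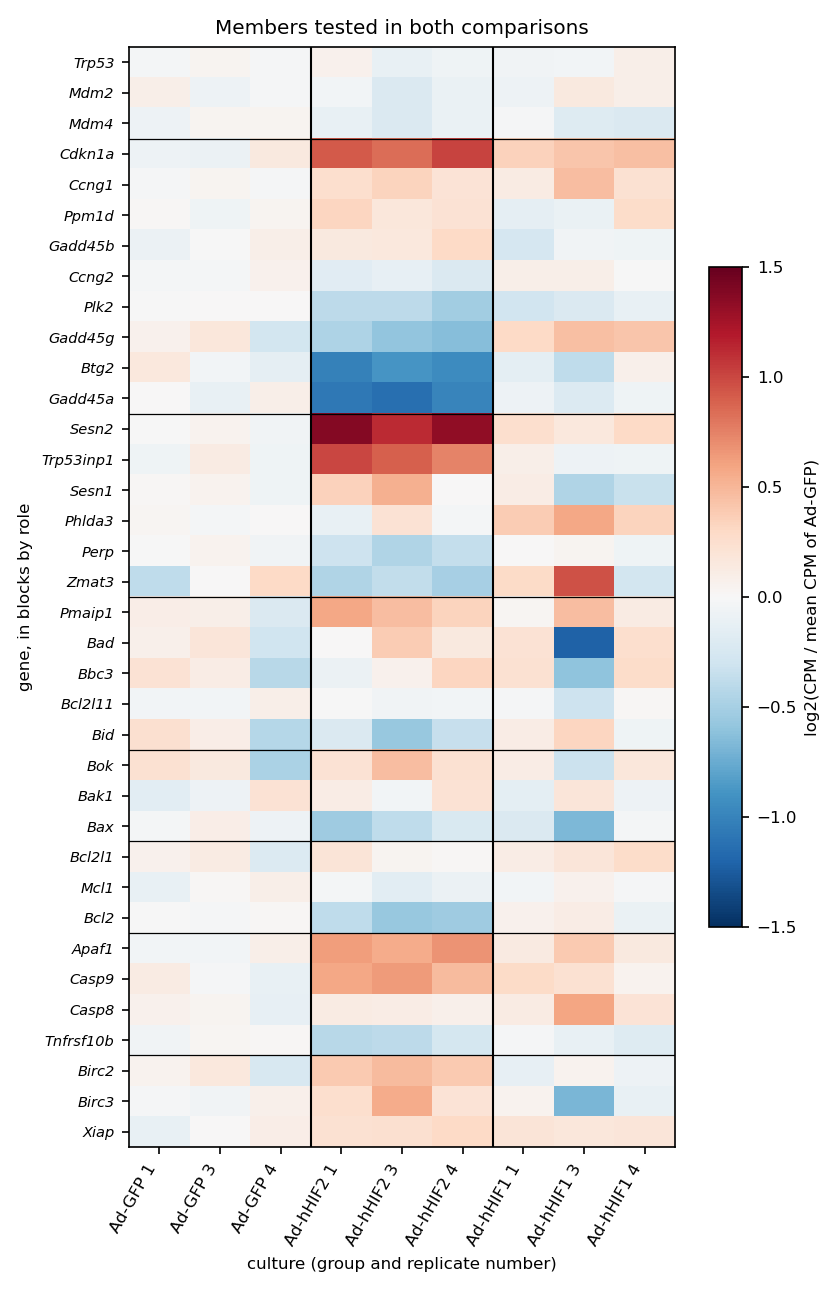
Log2 ratio of each culture's CPM to the mean of Ad-GFP (colour, red higher and blue lower) for the 36 members tested in both comparisons with Ad-GFP (rows, in blocks by role) in the 9 cultures (columns). The 3 Ad-hHIF2 columns resemble each other in Cdkn1a, Sesn2, Trp53inp1, Gadd45a and Btg2, and Ad-hHIF1 culture 3 stands apart from the other Ad-hHIF1 cultures in Bad, Zmat3, Casp8, Bax and Birc3.

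In Ad-hHIF1 against Ad-GFP organoids no member was called among 37 tested, as for 0 of all 15233 genes in edgeR's quasi-likelihood test (0%). At an unadjusted p below 0.05 there were 8 members (21.6%), against 8.59% of all genes. Of these, 7 had a positive log2 fold change (18.9% of the members tested, against 4.06% of all genes at that p) and 1 a negative one (2.7%, against 4.53%). These 8 did not overlap between groups, and with Apaf1 there were 9 such members (24.3%, against 17.4% of all genes). Cdkn1a had the lowest unadjusted p among the members, 0.00168, at a log2 fold change of 0.41 (edgeR adjusted p = 0.486). It was called by DESeq2 (adjusted p = 0.0140) and without a count filter (adjusted p = 0.0229), and no other member was called in any alternative. The other 6 with positive values were Phlda3 (0.43), Gadd45g (0.38), Casp8 (0.32), Ccng1 (0.28), Sesn2 (0.24) and Xiap (0.18), each a log2 fold change with an adjusted p of 0.490 or more, and Plk2 had -0.20. The lack of a call does not show equal levels: the 95% interval of Ad-hHIF1 against Ad-GFP was -0.20 to 0.18 for Trp53inp1 and -0.16 to 0.21 for Bcl2, but -0.88 to 0.69 for Bad, whose Ad-hHIF1 values were 14.6, 5.39 and 14.8 CPM.

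Both comparisons above share the Ad-GFP cultures, so the HIFs were also compared directly, in 1 fit of all 9 samples. Of 37 members tested 17 were called (45.9%, against 25.8% of 15556 genes), 7 higher in Ad-hHIF2 (18.9%, against 13.7%) and 10 lower (27%, against 12%). On log2 TPM, not scaled for library composition, most of these calls were lost. Over all genes 315 were then called higher and 52 lower with a pseudocount of 1. The cultures of the HIFs did not overlap for 22 members (59.5%, against 41.8% of all genes). Relative to Ad-hHIF1, Sesn2 was 2.06-fold higher in Ad-hHIF2 organoids (1.04 ± 0.08 SE on the log2 scale, edgeR adjusted p = 9.27e-06) and Trp53inp1 1.87-fold (0.90 ± 0.09 SE, edgeR adjusted p = 6.11e-05). Cdkn1a also differed between the HIFs directly (0.52 ± 0.08 SE, edgeR adjusted p = 0.00111). Apaf1 (0.39), Birc2 (0.47), Birc3 (0.56) and Gadd45b (0.32) were the other members called higher, with log2 fold changes in parentheses. Without Ad-hHIF1 culture 3 Birc3 gave 0.36 and was no longer called (edgeR adjusted p = 0.0756).

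Among the 10 members with lower levels under Ad-hHIF2 than under Ad-hHIF1, Gadd45g (-0.95 ± 0.12 SE, edgeR adjusted p = 0.000231), Gadd45a (-0.95 ± 0.08 SE, edgeR adjusted p = 1.43e-05) and Btg2 (-0.81 ± 0.12 SE, edgeR adjusted p = 0.000902) came with the growth arrest group. The survival gene Bcl2 was also lower (-0.52 ± 0.08 SE, edgeR adjusted p = 0.000983). Phlda3 was called here at -0.40 and not against Ad-GFP, its Ad-hHIF1 values of 10.3 to 12.2 CPM lying above both other groups. Zmat3 was called at -0.84 (edgeR adjusted p = 0.0467) with Ad-hHIF1 values spread over 6.52 to 15.3 CPM. Without Ad-hHIF1 culture 3 its log2 fold change was -0.48 and the call was lost (edgeR adjusted p = 0.137), as it was without Ad-hHIF1 culture 1 or any 1 Ad-hHIF2 culture. Perp (-0.37), Tnfrsf10b (-0.25), Ccng2 (-0.23) and Plk2 (-0.23) completed the 10. Tnfrsf10b and Plk2 lost this call with a replicate block and on centred TPM. Their signs turned on the uncentred TPM scales, with values below the medians of all genes there. Of the 17 members called against Ad-GFP under Ad-hHIF2, 5 were not called directly. Casp9 gave 0.37 (edgeR adjusted p = 0.0560) and Pmaip1 0.25 (edgeR adjusted p = 0.184), with 95% intervals of 0.09 to 0.66 and -0.03 to 0.53. For Ccng1, Xiap and Bax the direct log2 fold changes were -0.01, 0.08 and -0.10, with 95% intervals of -0.21 to 0.18, -0.07 to 0.23 and -0.42 to 0.23. Of the 17 direct calls 8 were kept with each of the 6 HIF cultures left out in turn: Sesn2, Trp53inp1, Cdkn1a, Gadd45g, Gadd45a, Btg2, Bcl2 and Perp. The other 9 were lost without at least 1 culture, and the counts then ranged from 4 to 7 higher and 5 to 9 lower. They reached 4 higher without Ad-hHIF2 culture 3 or Ad-hHIF1 culture 1, and 5 lower without Ad-hHIF2 culture 1 or 4 or Ad-hHIF1 culture 3.

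**Figure D4:**
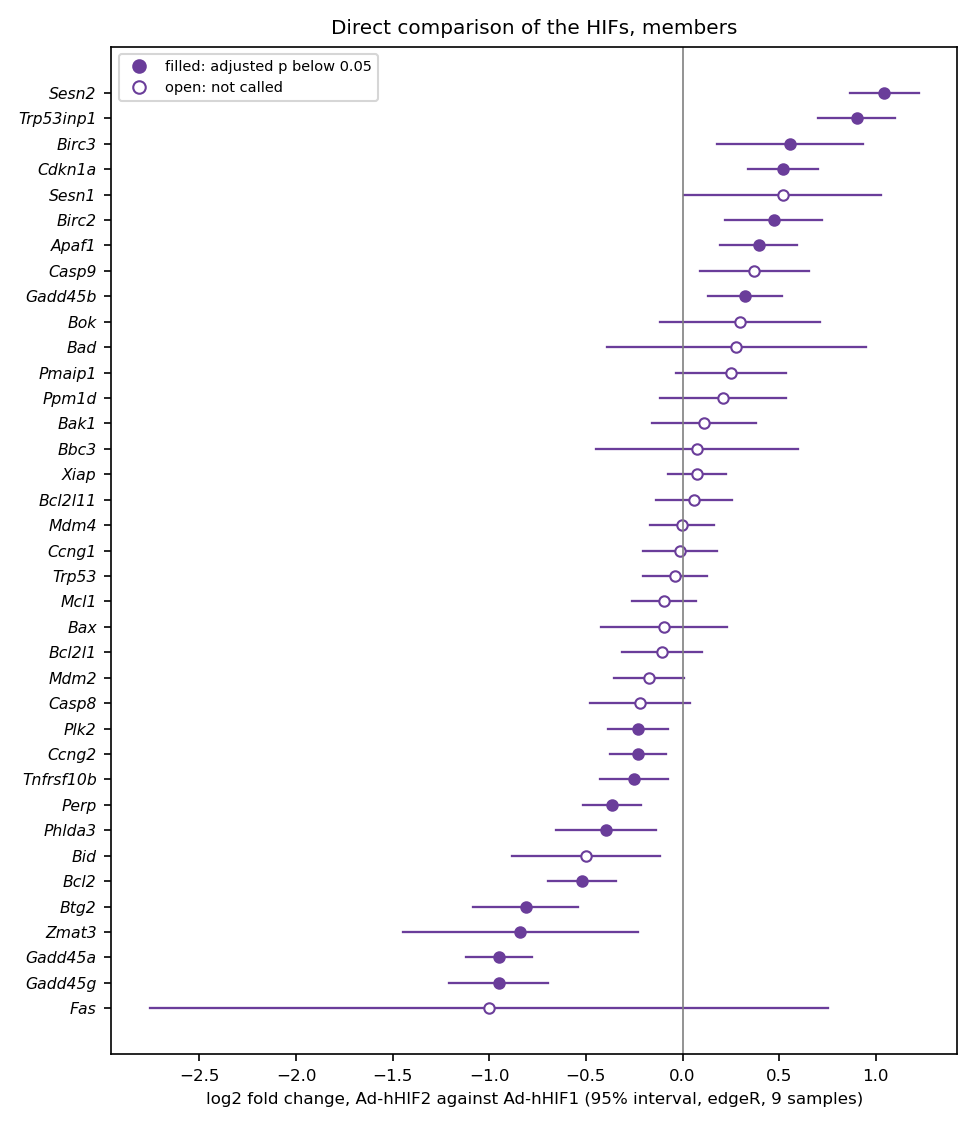
Log2 fold change of Ad-hHIF2 against Ad-hHIF1 (x axis) with 95% intervals for the 37 members tested in the fit of all 9 samples, sorted. Filled points are the 7 members called higher and the 10 called lower, with Sesn2 at 1.04 the highest filled point and Gadd45g and Gadd45a at -0.95 and -0.95 the lowest, and the widest interval belongs to the rarely counted Fas.

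Per kilobase of effective length the members spanned 0.149 (Bik) to 63.9 (Gadd45a) CPM per kb in Ad-GFP organoids, with a median of 8.50. Gadd45a, the most abundant member in the control at 63.9, stood at 28.9 in Ad-hHIF2 organoids. Cdkn1a went from 17.1 to 32.6 and Trp53inp1 from 13.8 to 25.5 CPM per kb. The effector Bax was at 28.1, above Bak1 at 15.7 and Bok at 7.39, and the BH3-only gene Bad at 15.1 was above Bcl2l11 at 11.8, Bbc3 at 6.43 and Bid at 5.20, all in Ad-GFP organoids. These are means of 3 cultures and the order of neighbours was not tested.

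**Figure D5:**
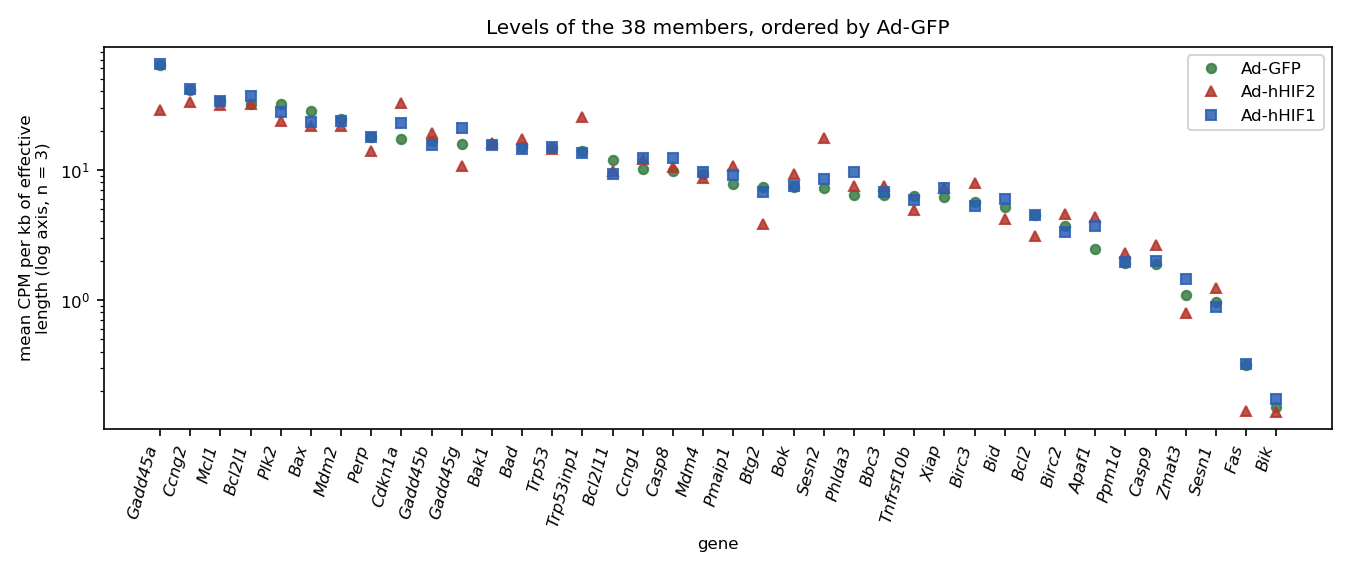
Mean CPM per kilobase of effective length (y axis, log scale, n = 3) of the 38 members in each group, ordered by Ad-GFP. Green circles are Ad-GFP, red triangles Ad-hHIF2 and blue squares Ad-hHIF1: Ad-hHIF2 departs from the other groups upward in Cdkn1a, Trp53inp1 and Sesn2 and downward in Gadd45a and Btg2, while Fas and Bik are near the floor in all groups.

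A wider set of 31 further p53 targets was read in the same way in Ad-hHIF2 against Ad-GFP organoids. Of 29 tested, 3 were called higher and 7 lower, a share of 34.5% beside 29.5% of all genes, with a median log2 fold change of -0.08. The share called lower was 24.1% (13.6% of all genes) and that called higher 10.3% (15.9%), and with a 2-fold change in addition 3 were lower (10.3%, against 3.83%) and 0 higher. Abhd4 (0.75), Trp53inp2 (0.60) and the excision repair gene Xpc (0.37) were the 3 higher, with log2 fold changes in parentheses. Ddit4, a stress-induced inhibitor of mTORC1, had the largest fall among the 7, from 52.6, 53.2 and 44.1 CPM in Ad-GFP to 19.3, 22.2 and 19.3 CPM in Ad-hHIF2 cultures (-1.30 ± 0.10 SE, edgeR adjusted p = 3.64e-05). It thus moved against Sesn2, which restrains the same kinase, with Ad-hHIF1 values of 57.1, 50.1 and 63.6 CPM. Psrc1 and Gdf15, a secreted stress cytokine, followed at -1.24 and -1.16 (edgeR adjusted p = 0.00695 and 0.00108).

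Among the other BCL2 family and BNIP genes 2 of 10 tested were called. Bmf, a BH3-only gene, rose from 13.6, 12.1 and 11.7 CPM in Ad-GFP to 25.8, 26.9 and 25.2 CPM in Ad-hHIF2 cultures, 2.09-fold (1.06 ± 0.09 SE, edgeR adjusted p = 5.31e-05), with Ad-hHIF1 at 13.9 ± 1.93 CPM. Bnip1 fell (-0.63, edgeR adjusted p = 0.0176). Of 20 other caspase, death receptor and inhibitor genes tested, 1 rose (the executioner Casp6, 0.53) and 1 fell (Cycs, the somatic cytochrome c, -0.60). Cytochrome c is the partner of Apaf1 and Casp9 in the apoptosome, and its gene thus moved against theirs. Of 17 kinases, cofactors and relatives of p53, 2 rose, the acetyltransferase Ep300 (0.41) and the ubiquitin ligase Rchy1 (0.29), and 4 fell. The damage kinases Atr (-0.63 ± 0.07 SE, edgeR adjusted p = 0.000374) and Atm (-0.31 ± 0.08 SE, edgeR adjusted p = 0.0193) and the p53 inhibitor Ppp1r13l (-0.48) were the 3 largest of these falls. The shares called were 20%, 10% and 35.3% in these lists, beside the 29.5% of all genes, and under Ad-hHIF1 none of the 4 lists had a call.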

How the data were processed

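Per the study's methods, RSEM estimated the abundance of transcripts after reads of poor quality had been discarded. The authors deposited 1 table per library with expected counts, TPM and effective lengths per gene. The aligner, RSEM version, genome build, annotation and strandedness are not given in the sources used here. Gene coordinates were taken from GENCODE M21 (GRCm38) by gene identifier, and 1 column of expected counts per library was used.

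From the deposited expected counts, rounded to whole numbers, genes were filtered with filterByExpr, scaled by TMM and tested with edgeR 4.0.16 (R 4.3.3) by quasi-likelihood with Benjamini-Hochberg adjustment over all genes tested. The comparisons with Ad-GFP used the 6 samples concerned, and that between the HIFs all 9. A call was an adjusted p below 0.05. The study's own tool for this step, EBSeq, was not used here. An exact permutation test of 3 against 3 cannot give a p below 0.1 and was not run. CPM use TMM factors over all 9 libraries, and CPM per kb divide by effective length. The deposited TPM entered alternatives only. Bounds are 95% intervals of edgeR's log2 fold change. Other alternatives were other count filters and size factors, DESeq2 1.42.0, limma 3.58.1, a replicate block and leaving out each library. Scripts were tested on simulated data.

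The members and all gene lists were chosen with earlier results of these data known. Named were all 38 members, Epas1 and Hif1a, and from each wider list up to 3 of the largest called rises and falls under Ad-hHIF2. Marker genes of cell types and proliferation were named for their levels or calls after these were seen. The p-values set the difference between groups against the spread between these cultures, which the labels do not tie to animals.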

Additional observations from a re-analysis of the deposited data

How the results depend on the processing

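Sesn2, Cdkn1a and Trp53inp1 kept their call against Ad-GFP under Ad-hHIF2 in all alternatives, except that Cdkn1a and Trp53inp1 missed the 2-fold rule, and Sesn2 also in the direct comparison. In Ad-hHIF2 against Ad-GFP organoids, limma on log2(TPM + 1) called 3 members higher and 0 lower, log2(TPM + 0.1) 4 and 0, and a 2-fold change in addition 1 and 1. Over all genes, where edgeR called 2381 higher and 2035 lower, these settings gave 814 and 196, 899 and 210, and 435 and 574. Centring log2(TPM + 0.1) on its median, an alternative chosen after seeing the data, gave 1255 genes higher and 1427 lower, and 6 members higher and 7 lower. On TPM + 1 and TPM + 0.1 the log2 fold changes turned positive for Plk2 (0.027 and 0.0224), Perp (0.0682 and 0.0777), Bax (0.0617 and 0.0722) and Tnfrsf10b (0.0541 and 0.091), with no adjusted p below 0.05. Genes with an effective length below 100 bases held 67.5 to 73.6% of all TPM. In Ad-GFP cultures the share was 69.9 to 73.6%, and in Ad-hHIF2 cultures 69.6 to 73.6%. TMM factors were 0.921 to 0.938 in Ad-GFP cultures and 1.31, 0.998 and 1.03 in Ad-hHIF2 cultures 1, 3 and 4. The part of either in the TPM results was not tested. The median log2 fold change of all genes moved to 0.12 and 0.30 on these TPM scales and to -0.13 without a count filter. All 8 values lay below those medians, and on centred TPM they were -0.38 for Plk2, -0.33 for Perp, -0.33 for Bax and -0.32 for Tnfrsf10b, beside a median of -0.10 over all genes, with Bax no longer called (limma adjusted p = 0.0547). Leaving out 1 library gave 6 to 11 members higher and 6 to 9 lower, and 1715 to 2550 and 1330 to 1989 of all genes, with the fewest lower genes without Ad-hHIF2 culture 1 (1330) or 3 (1349).

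In Ad-hHIF1 against Ad-GFP organoids, Cdkn1a was the 1 member called, higher, without a count filter and by DESeq2. Over all genes 258 were higher and 126 lower without a filter, 68 and 76 by DESeq2, 4 and 1 by limma-voom, and 6 and 1 with all 9 samples in 1 fit. Leaving out 1 library gave 0 calls throughout, as did edgeR with all 6.

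In the direct comparison (7 members higher and 10 lower), TPM + 1 gave 1 and 0, TPM + 0.1 gave 2 and 0, centring gave 6 and 5, and a 2-fold change in addition 1 and 0. Over all genes (2137 and 1871) these gave 315 and 52, 381 and 79, 1170 and 1162, and 376 and 575. On TPM + 1 and TPM + 0.1 the sign turned for Plk2 (0.0394 and 0.0377) and Tnfrsf10b (0.0219 and 0.0264), neither called there. These values lay below the medians of all genes on these scales, 0.06 and 0.17, and on centred TPM were -0.21 and -0.22, beside a median of -0.07, not called. Leaving out 1 library gave 4 to 7 members higher and 5 to 9 lower, and 1483 to 1850 and 1111 to 1774 of all genes, the fewest lower without Ad-hHIF2 culture 1 (1111).

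Same-numbered samples did not deviate together in all comparisons: correlations of their deviations were 0.0856, 0.0927 and 0.2143 for Ad-hHIF2 with Ad-GFP, 0.1526, 0.0574 and -0.1307 for Ad-hHIF1 with Ad-GFP, and -0.0885, -0.1101 and -0.2503 for the HIFs. For Ad-hHIF2 with Ad-GFP all were positive, beside -0.2138 to 0.1323 between samples of different number. With signs that differed between comparisons, the numbers were not taken to pair the samples. With the replicate block, 9 members were higher and 8 lower under Ad-hHIF2, 0 under Ad-hHIF1, and 6 and 7 in the direct comparison, where Birc3, Plk2, Tnfrsf10b and Zmat3 lost their call. All genes then counted 2496 and 2135, 0 and 0, and 2001 and 1637. Of members called in neither setting, 9 of 19, 22 of 37 and 12 of 20 changed sign in at least 1 alternative, so the sign of an uncalled member can depend on the setting. Fas and Bik had at most 26 and 10 counts in a library. Bik passed the main count filter in no comparison, and Fas did not in Ad-hHIF2 against Ad-GFP organoids. Where Fas was tested its 95% intervals were wide. They were -1.63 to 1.64 in Ad-hHIF1 against Ad-GFP organoids and -2.76 to 0.75 in the direct comparison.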

Other observations

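Ad-hHIF1 culture 3 lay apart from the other Ad-hHIF1 cultures in several members, and also over all genes that passed the count filter. There the chi-square per degree of freedom between the counts of culture 3 and those of cultures 1 and 4 was 225.6 and 475.4. Between cultures 1 and 4 it was 72.97. Bad measured 14.6, 5.39 and 14.8 CPM in Ad-hHIF1 cultures 1, 3 and 4, Zmat3 9.63, 15.3 and 6.52 CPM, Birc3 10.9, 6.53 and 9.69 CPM, Casp8 20.7, 28.7 and 21.9 CPM and Bax 17.6, 12.9 and 20.1 CPM. Its value was the lowest of all 9 cultures for Bad, Birc3 and Bax and the highest for Zmat3 and Casp8. With this culture left out, no member was called in Ad-hHIF1 against Ad-GFP organoids, and 7 were called higher and 5 lower in the direct comparison. Over all genes the counts were then 0 in the first and 1757 higher and 1582 lower in the second.

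In the direct comparison of the HIFs, the wider lists had 10 of 31 p53 targets, 4 of 10 other BCL2 family and BNIP genes, 5 of 21 other caspase, death receptor and inhibitor genes and 3 of 17 p53 kinases, cofactors and relatives called, beside 25.8% of all genes. Ddit4 had a log2 fold change of -1.49 ± 0.11 SE (edgeR adjusted p = 7.23e-06) in Ad-hHIF2 against Ad-hHIF1 organoids and Bmf one of 0.89 ± 0.11 SE (edgeR adjusted p = 0.000207), in the same directions as against Ad-GFP.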
